A study of Mus musculus with 8 samples.

Results

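Ret, Gfra1, Gfra2, Gdnf, Nrtn, Edn3, Ednrb and Ece1 encode 2 signalling systems that act on the neural crest cells of the gut, and they were followed in the stomach of E13.5 mouse embryos. They were chosen by gene name: each of the 8 names was carried by 1 assembled locus, so 8 loci were taken of 26747 in all, 23165 of which had a gene name. Ret, Gfra1, Gfra2 and Ednrb were read as the receptor side. The ligands Gdnf, Nrtn and Edn3 and the processing enzyme Ece1 were read as the ligand side. Whole stomach RNA was sequenced from 4 wild type libraries and from 4 libraries of the genotype NKX3.2Cre;R26-YAP5SA, called YAP5SA here. In the latter, Cre recombinase is driven by Nkx3-2, a gene of the stomach mesenchyme, and switches on YAP5SA, an activated form of the transcriptional coactivator YAP, from the Rosa26 locus. No group with Cre alone or with the silent allele alone was among the samples, so effects of Cre and of YAP5SA cannot be told apart. The labels do not say whether a library was made from 1 embryo or from a pool. A p-value here sets the difference between genotypes only against the spread of libraries within a genotype.

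As background, the enteric nervous system arises from neural crest cells that enter the foregut and migrate through the gut mesenchyme. These cells carry the receptor tyrosine kinase RET, which is activated when the secreted ligand GDNF binds the membrane-anchored coreceptor GFRA1, and neurturin acts in the same way through GFRA2. Mesenchymal GDNF attracts the migrating cells and supports their survival and division. Endothelin-3, made by the mesenchyme as a precursor that the protease ECE1 cleaves, acts on the G protein-coupled receptor EDNRB and keeps crest cells in a dividing progenitor state. Loss of function of RET, GDNF, EDN3, EDNRB or ECE1 can leave part of the gut without ganglia. RET, GFRA1 and EDNRB are not restricted to crest cells in every organ, and whole tissue RNA does not tell the cells apart.

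The promoters of the genes that fell are shown because the genotypes differ in a coactivator that binds DNA through TEAD factors, and because SOX10, a crest transcription factor, is known to act on Ret and Ednrb. RefSeq (GRCm38.p6) gave promoters for 6 of the 8 genes, in 10 windows, counting the 250 bases before each annotated start. Ret and Gfra2 had no entry. The Gfra1 and Ednrb windows lie inside their assembled loci, which end at 58456275 and 103844414. The Gdnf window shown overlaps its locus, which starts at 7809936. These windows thus precede a RefSeq start but not the whole locus, and may hold transcribed bases. For Ednrb and Gdnf the first bases after that start were not found in a GENCODE transcript. The sequences of Gfra1 (chr19:58455399-58455648, minus strand), Gdnf (first of its windows, chr15:7809798-7810047, plus strand), Edn3 (chr2:174760369-174760618, plus strand) and Ednrb (chr14:103843702-103843951, minus strand) read 5′ to 3′ toward the start as follows, and the capitals mark the only match found.
Gfra1: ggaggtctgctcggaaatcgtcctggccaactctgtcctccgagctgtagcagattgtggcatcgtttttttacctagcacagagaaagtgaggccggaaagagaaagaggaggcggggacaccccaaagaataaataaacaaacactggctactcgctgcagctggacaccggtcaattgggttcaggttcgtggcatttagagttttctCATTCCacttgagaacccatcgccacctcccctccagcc
Gdnf: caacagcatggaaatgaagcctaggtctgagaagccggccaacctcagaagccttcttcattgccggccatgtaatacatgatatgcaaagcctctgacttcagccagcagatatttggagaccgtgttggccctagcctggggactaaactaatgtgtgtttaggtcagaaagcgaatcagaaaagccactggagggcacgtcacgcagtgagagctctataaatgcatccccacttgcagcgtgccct
Edn3: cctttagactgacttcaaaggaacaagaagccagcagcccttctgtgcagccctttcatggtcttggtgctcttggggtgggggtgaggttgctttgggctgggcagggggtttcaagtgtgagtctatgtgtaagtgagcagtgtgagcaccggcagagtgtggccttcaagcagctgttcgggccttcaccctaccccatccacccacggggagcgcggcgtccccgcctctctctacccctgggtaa
Ednrb: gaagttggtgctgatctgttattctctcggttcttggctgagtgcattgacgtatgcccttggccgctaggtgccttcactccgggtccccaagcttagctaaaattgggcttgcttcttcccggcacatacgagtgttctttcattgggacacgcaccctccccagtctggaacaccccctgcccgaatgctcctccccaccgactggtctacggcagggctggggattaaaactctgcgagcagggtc
The letters searched, on both strands, were GGAATG for the TEAD family and ACAAAG for the SOX family. Among the 10 windows, Gfra1 alone held a TEAD family match, on the minus strand of the gene with its first base at position -39 from the start, and no window held the SOX family letters. Over 32851 promoters of the same length, 12.6% held the TEAD family letters and 16.5% the SOX family letters. A match describes letters in this window and is not a binding site.

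Levels are given as CPM, the usual counts per 1000000 fragments of a library, where the library total covers loci with a gene name and is adjusted by its TMM factor (0.988 to 1.02), and as FPKM where genes of different length are compared. Library totals were 6204927 to 6783550 fragments in wild type and 7152515 to 8353237 in YAP5SA. Changes are log2 fold changes of YAP5SA minus wild type with their standard error (SE) from edgeR's quasi-likelihood test over 14574 loci. A gene was called changed at an adjusted p under 0.05, Benjamini-Hochberg over all those loci. Yap1 itself stood at 232 ± 7.46 CPM in wild type and 224 ± 13.46 in YAP5SA (SD, n = 4 each; log2 fold change -0.05, edgeR adjusted p = 0.55). The labels do not give the sequence of the transgene, so whether its fragments were counted at Yap1 is not known and this value does not check the labels. The driver gene Nkx3-2 stood at 63.0 ± 10.5 and 79.1 ± 14.5 CPM, with an adjusted p of 0.15 in edgeR.

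Genes of both systems were lower in YAP5SA. Ret, Gfra1 and Ednrb on the receptor side and Gdnf and Edn3 on the ligand side fell, by 1.53-fold to 2.89-fold. Gfra2, Nrtn and Ece1 did not pass the test. Of the 8 genes, 5 were called lower and 0 higher, against 9.85% of all tested loci called lower and 9.06% called higher. The split was 3 of 4 on the receptor side and 2 of 4 on the ligand side. In the same 5 genes every YAP5SA library lay below every wild type library, which held for 12.4% of all tested loci. The median log2 fold change was -0.66 over the 8 genes, -0.81 on the receptor side and -0.44 on the ligand side, and -0.01 over all tested loci.

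**Figure D1:**
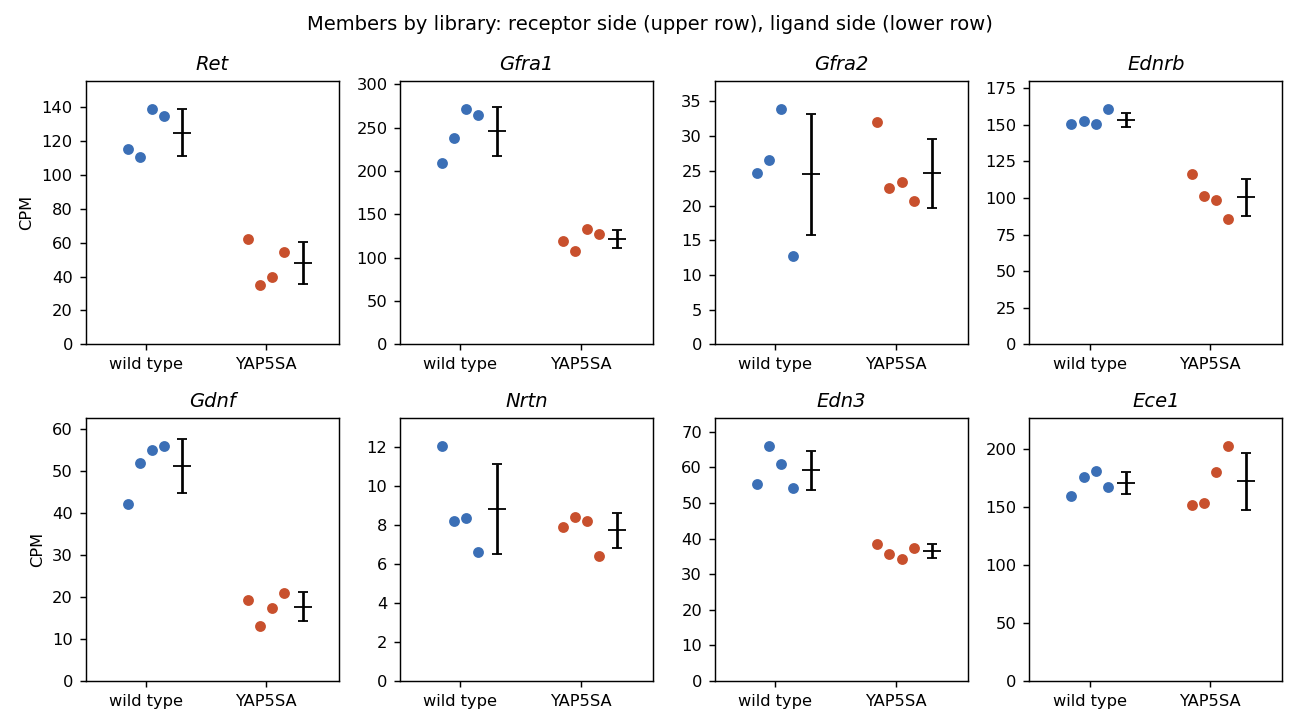
Level of each of the 8 genes in CPM (vertical axis, from 0) in every library, with points in the order of libraries 1 to 4 and a black bar for the mean ± SD of each genotype. Ret, Gfra1, Ednrb, Gdnf and Edn3 show no overlap between the genotypes, and Gfra2, Nrtn and Ece1 do.

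Ret encodes the signalling receptor of the GDNF family (chr6:118151748-118197744 in mm10, protein coding). It stood at 115, 111, 139 and 135 CPM in wild type libraries 1 to 4 and at 62.0, 35.2, 39.8 and 54.7 CPM in YAP5SA libraries 1 to 4. The highest YAP5SA library was the first and lay well below the lowest wild type library. The means were 125 ± 14.0 and 48.0 ± 12.6 CPM (SD, n = 4 each), a log2 fold change of -1.38 (SE 0.16, edgeR adjusted p = 0.00033). In whole tissue RNA, fewer cells of a type and less RNA per cell cannot be told apart, here and in every result that follows.

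Gfra1 encodes the coreceptor that presents GDNF to RET (chr19:58232587-58456275, protein coding). It stood at 209, 237, 271 and 264 CPM in wild type and at 119, 107, 132 and 127 CPM in YAP5SA. The genotypes did not overlap, and the YAP5SA libraries lay close together. The means of 245 ± 28.3 and 122 ± 10.8 CPM gave a log2 fold change of -1.01 (SE 0.09, edgeR adjusted p = 8.6e-05). An antisense gene, Gm16277, overlaps Gfra1 at its 3′ end, and neither labels nor headers say whether counting used strand, so reads of the pair cannot be told apart.

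Gfra2 encodes the neurturin coreceptor (chr14:70890130-70979838, protein coding). Its libraries read 24.6, 26.6, 33.9 and 12.8 CPM in wild type and 32.0, 22.5, 23.3 and 20.7 CPM in YAP5SA. Wild type library 4 was the lowest of all 8 and wild type library 3 the highest, so the genotypes overlapped throughout. The log2 fold change was 0.01, with a 95% interval from -0.54 to 0.56 and an edgeR adjusted p of 0.99.

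Ednrb encodes the endothelin-3 receptor (chr14:103814618-103844414, protein coding). It stood at 151, 152, 151 and 161 CPM in wild type and at 117, 101.4, 98.5 and 85.3 CPM in YAP5SA. The wild type libraries were nearly level, and all YAP5SA libraries lay below them. The means were 154 ± 4.83 and 100.5 ± 12.9 CPM, and the log2 fold change was -0.61 (SE 0.08, edgeR adjusted p = 0.00070). Its 95% interval ran from -0.79 to -0.43, and that of Ret from -1.73 to -1.03. The difference between these changes was not tested, and the ratio of Ret to Ednrb was not among the ratios examined.

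On the ligand side, Gdnf encodes the mesenchymal ligand of the RET and GFRA1 pair (chr15:7809936-7837580, protein coding). It stood at 42.1, 52.0, 55.2 and 56.1 CPM in wild type and at 19.4, 12.99, 17.4 and 21.1 CPM in YAP5SA. The highest YAP5SA library was below the lowest wild type library. The means were 51.3 ± 6.40 and 17.7 ± 3.49 CPM, a log2 fold change of -1.53 (SE 0.15, edgeR adjusted p = 0.00012). This was the lowest estimate among the 8 genes, and its 95% interval, from -1.86 to -1.21, overlapped that of Ret. YAP5SA counts rested on 94 to 162 fragments per library.

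Edn3 encodes endothelin-3 (chr2:174760696-174784042, protein coding). It stood at 55.3, 66.0, 61.0 and 54.3 CPM in wild type and at 38.6, 35.5, 34.1 and 37.3 CPM in YAP5SA. The YAP5SA libraries spanned a narrow range below all wild type libraries. The means were 59.2 ± 5.44 and 36.4 ± 1.95 CPM, and the log2 fold change was -0.70 (SE 0.08, edgeR adjusted p = 0.00032).

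Nrtn, the ligand of GFRA2 (chr17:56751325-56757530, protein coding), stood at 12.1, 8.23, 8.40 and 6.63 CPM in wild type and at 7.91, 8.43, 8.23 and 6.44 CPM in YAP5SA. Only wild type library 1 stood apart, above all the others. With 42 to 76 fragments per library the log2 fold change was -0.19, with a 95% interval from -0.66 to 0.29 and an edgeR adjusted p of 0.62. Ece1, whose protease releases active endothelins from their precursors (chr4:137862189-137965232, protein coding), stood at 159, 175, 181 and 167 CPM in wild type and at 152, 153, 180 and 202 CPM in YAP5SA. The YAP5SA libraries spread to both sides of the wild type ones. The log2 fold change was 0.01, with a 95% interval from -0.19 to 0.21 and an edgeR adjusted p of 0.96. An antisense gene, Gm13012, lies within Ece1, and its reads cannot be told apart from those of Ece1.

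Compared per length, the order of the genes also differed between the genotypes. In wild type, Gfra1 led at 51.9 ± 6.49 FPKM, followed by Ednrb at 42.5 ± 1.25, Ece1 at 37.0 ± 2.07, Edn3 at 21.0 ± 1.94, Ret at 18.3 ± 2.13, Gdnf at 13.3 ± 1.70, Nrtn at 10.6 ± 2.77 and Gfra2 at 7.95 ± 2.77 (SD, n = 4). The libraries of neighbouring genes overlapped for Gfra1 and Ednrb, for Edn3 and Ret, for Gdnf and Nrtn and for Nrtn and Gfra2, so the order within those pairs is not resolved. In YAP5SA, Ece1 led at 37.7 ± 5.18 FPKM, then Ednrb at 28.0 ± 3.59, Gfra1 at 26.8 ± 2.40, Edn3 at 12.997 ± 0.70, Nrtn at 9.35 ± 1.09, Gfra2 at 7.78 ± 1.69, Ret at 6.99 ± 1.74 and Gdnf at 4.66 ± 0.94. There the libraries overlapped for Ednrb and Gfra1, for Nrtn and Gfra2, for Gfra2 and Ret and for Ret and Gdnf. Ret and Gdnf, above Nrtn and Gfra2 on average in wild type, were the lowest of the 8 on average in YAP5SA.

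Whether ligand and receptor moved in proportion was asked with 7 ratios of FPKM within a library, each tested by a two-sided exact permutation test over the 8 libraries. With 4 against 4 the smallest possible exact p is 0.0286, and p-values were adjusted over the 7 ratios. Gdnf to Ret averaged 0.730 in wild type and 0.674 in YAP5SA, a log2 difference of -0.12 (exact p = 0.34, adjusted p = 0.48). Edn3 to Ednrb averaged 0.495 and 0.469, a log2 difference of -0.08 (exact p = 0.54, adjusted p = 0.54). For neither ligand and receptor pair was a shift in the ratio detectable, and the libraries overlapped in both. Nrtn to Gfra2 averaged 1.44 and 1.23, with an exact p of 0.54.

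Within the receptor complex, Ret to Gfra1 read 0.376, 0.331, 0.346 and 0.361 in wild type libraries 1 to 4 and 0.348, 0.219, 0.199 and 0.281 in YAP5SA. YAP5SA library 1 lay within the wild type range and the other YAP5SA libraries below it. The log2 difference was -0.47 (exact p = 0.086, adjusted p = 0.2). Against a gene of neurons, the ratio of Ret to Tubb3, a neuronal tubulin, averaged 0.313 and 0.246, a log2 difference of -0.37 (exact p = 0.11, adjusted p = 0.2).

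The ratio of Ednrb to Sox10, the transcription factor of crest progenitors and glia, was the one ratio whose genotypes did not overlap. It read 2.14, 2.24, 1.97 and 2.01 in wild type and 3.44, 4.57, 3.72 and 2.87 in YAP5SA. Every YAP5SA library was above every wild type library, with a log2 difference of 0.78 and an exact p of 0.0286, the smallest this design can give. After adjustment over 7 ratios the p was 0.2. A single ratio at the smallest exact p cannot come under 0.05 after that adjustment, so it does not decide whether this ratio differed. Coverage differed between these genes: Ednrb had 0.208 fragments per exonic base and Sox10 0.081. Within genotypes, the logarithm of fragments followed that of the library total with a slope that fell with coverage. The slope was 0.604 at 0.2 to 0.4 per base, the range of Gfra1, Ednrb and Ece1. It was 1.15 at 0.05 to 0.1 per base, the range of Ret, Gdnf, Nrtn, Edn3 and Sox10. At 0.01 to 0.05 per base, the range of Gfra2 and of Edn1 and Dok5 described below, it was 1.74. Every YAP5SA library total was above every wild type total, so an effect of depth cannot be told apart from one of genotype. The ratios of Edn3 to Ednrb, Ret to Gfra1 and Ret to Tubb3 (0.248 per base) also set a sparser gene over a denser one. The part of coverage in these ratios and in that of Ednrb to Sox10 was not tested. Nor was its part in the difference in size between the falls of Ret and Ednrb.

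**Figure D2:**
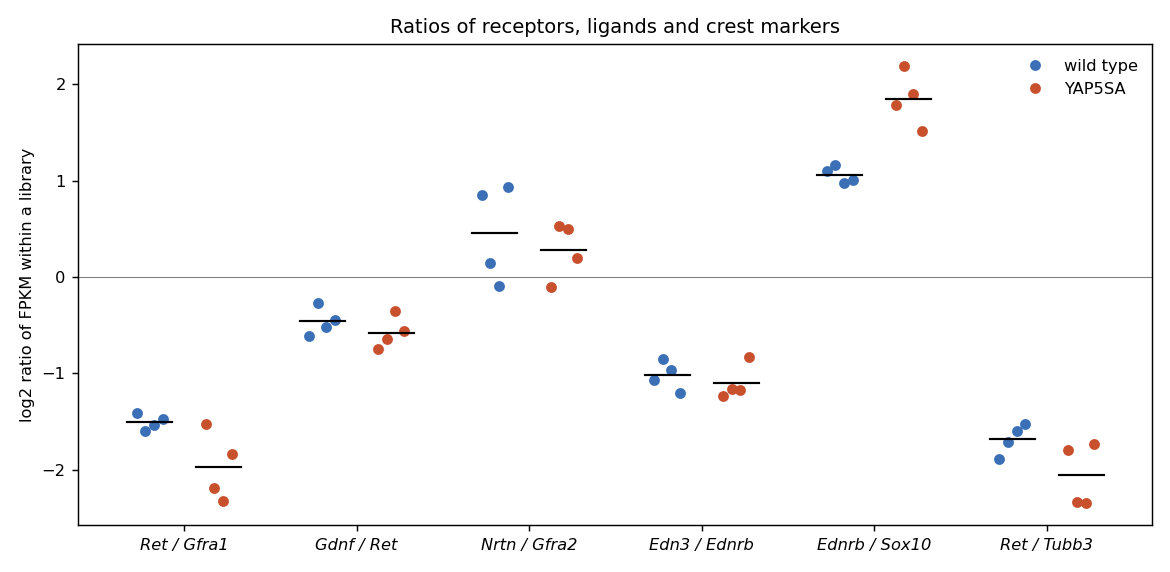
Ratios of FPKM within each library on a log2 axis (vertical), with 1 point per library and a horizontal line at each genotype's mean. Among the pairs drawn, only Ednrb to Sox10 separates the genotypes, with ratios of 1.97 to 2.24 in wild type and 2.87 to 4.57 in YAP5SA.

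Markers of the crest lineage fell with the receptors. Of 7 tested markers of enteric crest progenitors and glia, 6 were called lower and 0 higher, with a median log2 fold change of -1.39. Sox10 fell from 52.3 ± 3.96 to 19.9 ± 3.43 CPM (log2 fold change -1.39, SE 0.12, edgeR adjusted p = 7.7e-05), close in size to Ret. Foxd3, a crest transcription factor, fell from 15.3 ± 1.38 to 4.76 ± 1.13 CPM, and Fabp7, a lipid-binding protein of glial precursors, from 30.9 ± 2.62 to 17.9 ± 2.30 CPM (edgeR adjusted p = 0.00034 and 0.0012). The summed level of the list was 176 to 207 CPM in wild type and 70.7 to 108 CPM in YAP5SA. Of 17 tested markers of enteric neurons, 12 were called lower and 0 higher, with a median of -0.83. Tubb3 fell from 90.8 ± 6.18 to 43.7 ± 3.56 CPM (log2 fold change -1.05, edgeR adjusted p = 2.1e-05), and Stmn2, a microtubule regulator of growing axons, from 84.8 ± 2.99 to 47.7 ± 3.34 CPM. The summed neuronal level was 698 to 837 CPM in wild type and 482 to 526 CPM in YAP5SA. The part of cell number in the fall of Ret, Gfra1 and Ednrb was not tested.

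**Figure D3:**
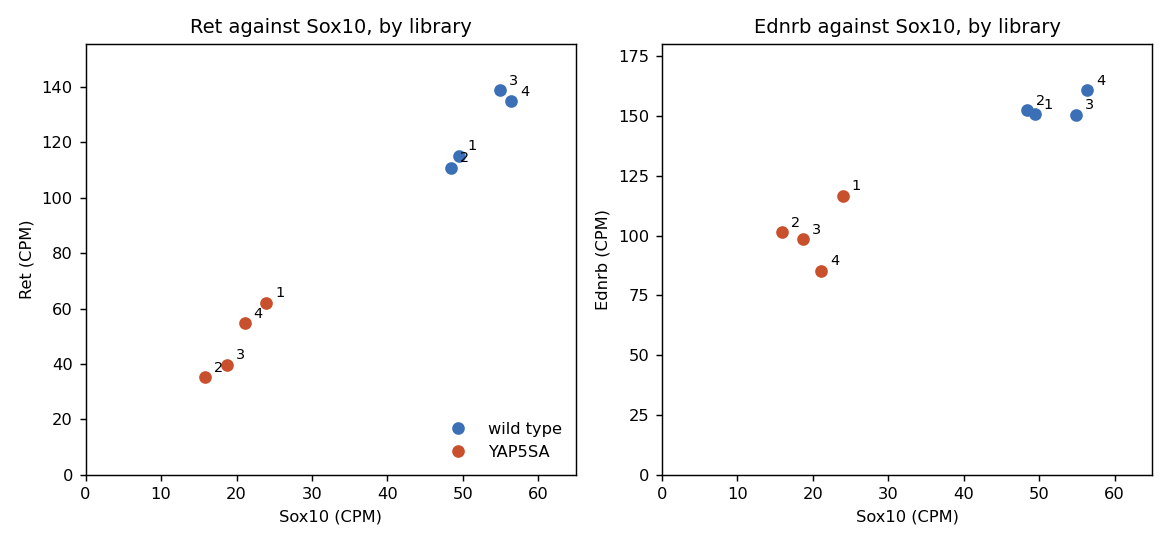
Ret (left) and Ednrb (right) against Sox10, all in CPM from 0, with 1 point per library and its number beside it. In Ret the libraries of each genotype rise together with Sox10, while Ednrb spans 85.3 to 117 CPM in YAP5SA without following Sox10.

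The genes most like Ret, Ednrb, Gdnf and Edn3 were sought over 8 libraries among 13643 genes by Pearson's r of log2 CPM, as a description. Gfra1, which also fell, was not searched in this way. The libraries differ in depth and fall into 2 genotypes, so r was also taken with genotype means removed. For Ret the first 3 were 9330159F19Rik (r = 0.996), Gria4, a glutamate receptor subunit (0.994), and Ccdc88c (0.992). Sox10 stood at rank 4 (0.991), and with genotype means removed at rank 8 (0.970), behind Smad1 (0.989), Abhd6 (0.979) and 3632451O06Rik (0.976) at the top. Ranks and r given here for pairs outside the first 3 were looked up after values were seen. For Ednrb the first 3 were Aldh1a7 (0.995), Bnipl (0.992) and Adcy5 (0.992), with Sox10 at rank 254 (0.934) and Ret at rank 466 (0.903). With genotype means removed the first 3 were Ecm2 (0.980), Mkx (0.972) and Notch1 (0.969). On that measure Ednrb stood far from Sox10 (0.28, rank 4129) and Ret (0.18, rank 5064).

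For Gdnf the first 3 were Mecom (0.998), Synpo2 (0.997) and Kit (0.995), a receptor tyrosine kinase, with Sox10 at rank 5 and Gfra1 at rank 8 (0.985). With genotype means removed, the first 3 were Hmbox1 (0.988), Tet1 (0.986) and Zfhx2 (0.984). Sox10 then stood at rank 546 (0.82), Ret at rank 666 (0.80) and Gfra1 at rank 740 (0.785). For Edn3 the first 3 were Cpb1 (0.984), Prkcq (0.981) and Fibin (0.980), and with genotype means removed Zfp300 (0.959), 6720463M24Rik (0.956) and Ccdc99 (0.951). The ligands Gdnf and Edn3 shared none of their first 3 genes, which says little among 13643 genes. Between Gdnf and Edn3 themselves r was 0.954 over all 8 libraries and 0.35 with genotype means removed.

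Other genes of the pathways were taken from 6 lists holding 44 genes, of which 39 were tested. Of these, 9 were called higher and 9 lower, 23.1% in each direction, against 9.06% and 9.85% of all tested loci. The median log2 fold change was 0.07. Shc1 and Zeb2 lay only in loci that carry several gene names, and Pspn, Dok6 and Pax3 were too low to be tested. Among other GDNF family genes, 0 of 3 tested passed. Gfra3, the artemin coreceptor, read 5.38 ± 2.02 CPM in wild type and 2.71 ± 1.42 in YAP5SA (edgeR adjusted p = 0.10). Gfra4, the persephin coreceptor, read 19.1 ± 0.82 and 18.7 ± 1.56 CPM.

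In the rest of the endothelin system, 2 of 4 tested genes were called higher and 0 lower. Edn1, endothelin-1, rose from 5.42 ± 1.51 to 14.7 ± 5.20 CPM (log2 fold change 1.44, SE 0.30, edgeR adjusted p = 0.0074). Its receptor gene Ednra, expressed by mesenchyme and smooth muscle, rose from 89.9 ± 6.93 to 112 ± 5.23 CPM (0.32, SE 0.06, adjusted p = 0.0056). For both, all 4 YAP5SA libraries were above all wild type libraries, which also held for Ece2. The share of all tested loci that separate in this direction was not counted. Ece2 and Edn2 did not pass the test.

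Among 12 tested partners and adaptors of RET and the GDNF coreceptors, 2 were called higher and 2 lower. Dok5, an adaptor that binds activated RET, rose from 3.86 ± 0.68 to 13.3 ± 0.98 CPM (log2 fold change 1.78, SE 0.19, edgeR adjusted p = 0.00019). Its relative Dok4 rose from 78.4 ± 8.03 to 99.2 ± 4.48 CPM. Grb7, an adaptor also expressed in epithelium, fell from 71.0 ± 3.23 to 37.2 ± 6.96 CPM (-0.93, SE 0.11, adjusted p = 0.00048), and Sdc3, a syndecan that binds GDNF, fell by 0.35 on the log2 scale. Ncam1, an alternative GDNF receptor, stood at 206 ± 18.7 and 215 ± 16.4 CPM (adjusted p = 0.64).

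Of 5 tested transcription factors of Ret and Ednrb expression, 3 were called lower and 1 higher. Sox10, described above, was among those that fell. Hoxb5, which also patterns mesenchyme, rose from 42.1 ± 7.51 to 75.1 ± 11.5 CPM (log2 fold change 0.83, SE 0.14, edgeR adjusted p = 0.0021). Tlx2 did not pass, at 28.3 ± 5.87 and 24.5 ± 6.25 CPM.

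Genes known to be induced by RET and by other receptor tyrosine kinases, were called higher in 3 of 6 cases and lower in 0. Dusp6, a phosphatase that restrains ERK, rose from 67.9 ± 2.31 to 90.5 ± 5.42 CPM (log2 fold change 0.41, SE 0.06, edgeR adjusted p = 0.00085). Spry2 and Etv5 rose by 0.26 and 0.30, with adjusted p-values of 0.021 and 0.036. The call of Etv5 was lost in 6 of the 8 fits that left out a library, with adjusted p up to 0.089, and that of Spry2 without YAP5SA library 3 (0.053). These genes are expressed well beyond crest cells.

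Of 9 other ligand and receptor genes of neural crest, 4 were called lower and 1 higher. Erbb3, the neuregulin receptor of crest cells, fell from 78.3 ± 8.25 to 37.8 ± 12.2 CPM at its larger locus, while its ligand Nrg1 stood at 12.2 ± 1.61 and 13.2 ± 2.74 CPM. L1cam, an adhesion molecule of migrating crest cells, fell from 41.6 ± 8.34 to 19.7 ± 6.12 CPM, and Ntn1, netrin-1, from 154 ± 5.39 to 106 ± 12.99 CPM (edgeR adjusted p = 0.0036, 0.0049 and 0.0011 for the 3 genes). Ntrk3 was called at an adjusted p of 0.046, a call lost in 10 of 15 alternative analyses, with adjusted p up to 0.13. Sema3a, a repulsive guidance cue, rose from 135 ± 6.28 to 163 ± 13.6 CPM.

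**Figure D4:**
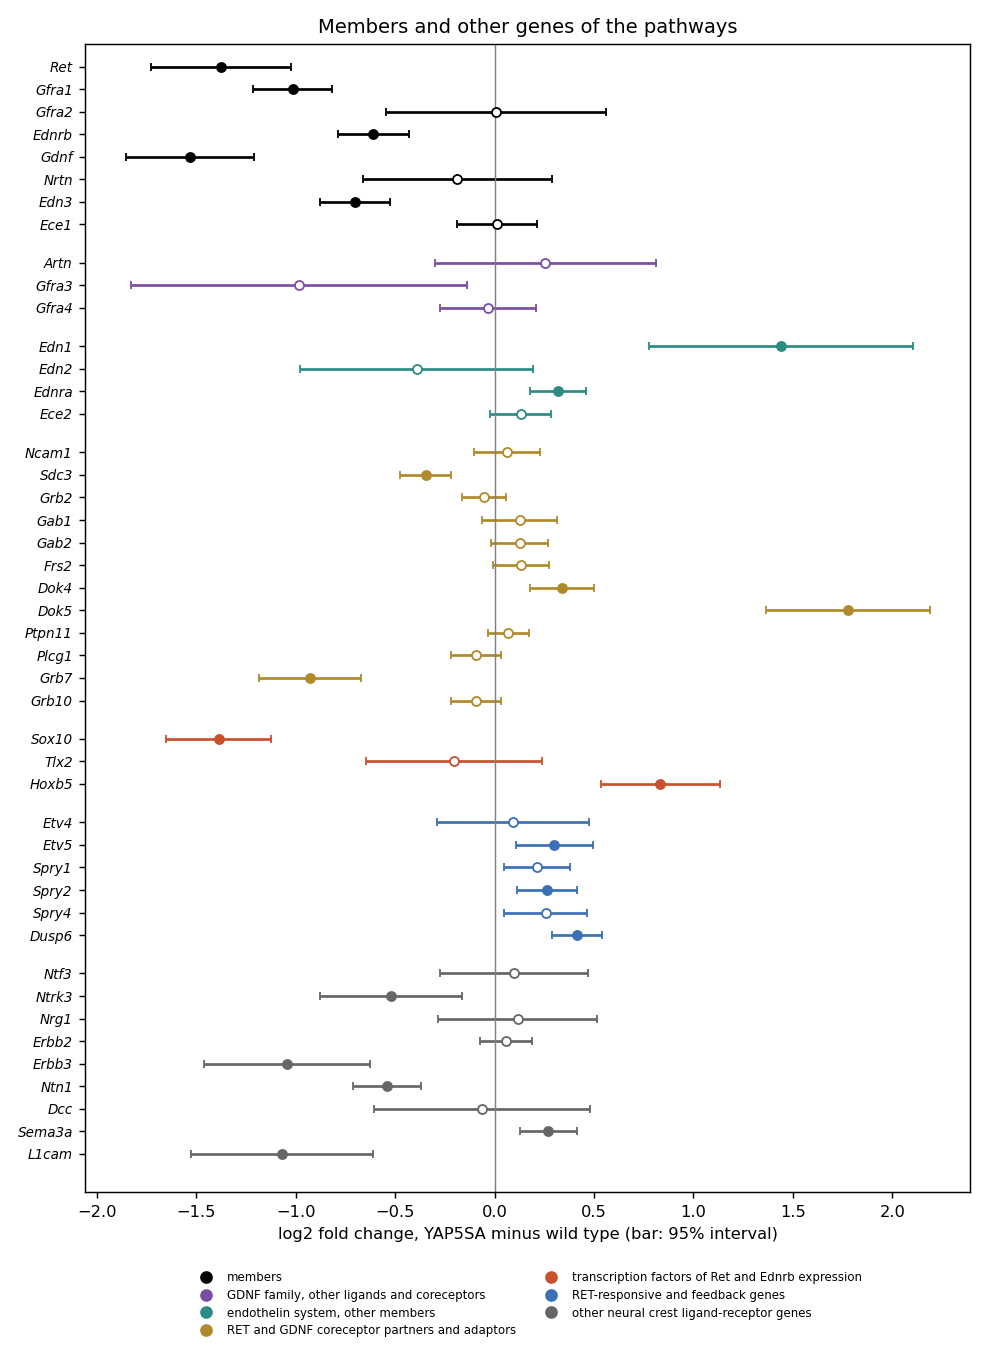
Log2 fold change of YAP5SA minus wild type for the 8 genes and other tested genes of the pathway lists (horizontal axis), with bars for the 95% interval. Filled points have an edgeR adjusted p under 0.05 and open points do not, and the colours mark the lists. The falls of Ret, Gfra1, Ednrb, Gdnf and Edn3 stand beside rises of Edn1, Dok5 and Hoxb5.

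Markers of some other cell types of the stomach also moved. All 11 tested epithelial markers were called lower, with a median of -1.05 and a summed level of 1007 to 1212 CPM in wild type and 519 to 765 CPM in YAP5SA. The 3 markers of interstitial cells of Cajal and 5 of 8 smooth muscle markers were lower, with medians of -0.72 and -0.69. Kit fell from 180.5 ± 17.1 to 88.8 ± 10.9 CPM (edgeR adjusted p = 0.00010). Mesenchyme, the source of Gdnf and Edn3 in the background above, had 3 of 8 markers lower and a median of -0.17. Barx1, its stomach-specific transcription factor, named here after its values were seen, stood at 171 ± 7.64 and 158 ± 14.2 CPM (adjusted p = 0.28), and Foxf1a, a forkhead factor, fell from 146 ± 4.90 to 87.7 ± 11.7 CPM. Endothelium, another tissue that can express Ednrb and Ece1, had 1 of 10 markers higher and a median of -0.02. Of all tested loci 9.06% were called higher. Mesothelium had 1 of 6 tested markers lower and a median of -0.36, and that count ranged from 0 to 3 over alternative analyses. Macrophage markers were higher in 4 of 4. Of the 5 markers of melanoblasts, another crest lineage that uses endothelin-3, 1 was at 0 in every library, and their summed level was 2.40 to 5.40 CPM over both genotypes. The part of these other cell types in the falls was not tested.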

How the data were processed

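Total RNA of embryonic stomach was isolated with Trizol and TruSeq RNA libraries were made from it, per the labels' protocols. The submitters' processing notes name the build mm10 and the tools Cuffdiff, Cufflinks 2.2.1 and TopHat2 2.0.9. Raw fragments per locus and library are estimated counts deposited by the authors: 10.6% to 11.0% of values were not whole, and they were rounded. FPKM were deposited by the authors, scaled between libraries. Locus positions are given 1-based. Another 3582 loci without a gene name, with 1.85% to 1.97% of fragments, entered neither the library sizes nor any test. No member lay in a joined locus, one that carries several gene names. Within each genotype every pair of libraries differed by more than counting error.

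Tests used edgeR 4.0.16 in R 4.3.3 (robust quasi-likelihood, TMM, filterByExpr with 10 fragments and 15 in total), with genotype as the only term. On simulated data for 14574 loci and 200 changed genes, this step recovered 85% of 2-fold and 67% of 1.5-fold changes, and 6.17% of its calls were false. The simulated fragments were proportional to the library total and held no pairs of libraries, so these rates do not cover departures from that. Ratios used scipy 1.17.1. Likeness used genes of at least 2 CPM on average and an offset of 0.5 CPM. Alternatives were DESeq2 size factors and test (1.42.0), no filter, limma 3.58.1 (voom, and log2 of FPKM plus 0.1 or 1, computed from the deposited FPKM), a replicate block and leaving out each library.

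Library numbers come from the deposited table, whose genotypes are named and whose numbers were matched to the labels in order. Deviations of same-numbered libraries from their genotype means correlated at 0.220, 0.143, 0.141 and 0.206 for numbers 1 to 4. The highest correlation of each wild type library with a YAP5SA library of another number was 0.071, 0.035, 0.104 and 0.058. The numbers were therefore treated as pairs in the block. The main fit and the exact tests given with the ratios did not use these pairs. The members, lists and tests were chosen with earlier results of these data known. Named genes were all members, Yap1, Nkx3-2, called genes of the pathway lists and others where a count needed them, leading markers of each list by p and abundance, and genes found by likeness. Of the 7 ratios, 1 is not reported here, nor are some genes of the lists, though counts, medians and adjustments include them.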

Additional observations from a re-analysis of the deposited data

How the results depend on the processing

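In all 15 alternatives 5 of the 8 genes were called lower and 0 higher, and Ret, Gfra1, Ednrb, Gdnf and Edn3 each kept their call. The log2 fold change of Ret ranged from -1.52 to -1.24 and that of Ednrb from -0.68 to -0.52. Among all tested loci 2032 to 3035 were called. Leaving out 1 library at a time changed the sign of the 3 genes without a call: Gfra2 ranged from -0.20 to 0.22, Nrtn from -0.30 to 0.011 and Ece1 from -0.063 to 0.081. Gfra2 turned negative without wild type library 4 (-0.20) or YAP5SA library 1 (-0.14), and Nrtn positive without wild type library 1 (0.011). With the replicate block 3035 loci were called, Ret stood at -1.40 (edgeR adjusted p = 0.0012), and no call among the 8 genes changed. In the block an exact test of a ratio cannot go below 0.125, and with a library left out not below 0.0571. The ratio of Ednrb to Sox10 ranged from 0.67 to 0.89 in log2 difference. Nrtn rested on the fewest fragments of the 8 genes, 42 to 76 per library.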

Other observations

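While 12 of 17 markers of enteric neurons were called lower, 2 neurofilament genes had positive estimates. Nefm, the medium neurofilament subunit, averaged 43.7 ± 5.62 CPM over wild type libraries and 69.7 ± 21.9 over YAP5SA libraries (SD, n = 4 each; log2 fold change 0.67, edgeR adjusted p = 0.051). Nefl, the light subunit, stood at 52.5 ± 6.35 and 67.1 ± 14.4 CPM (0.35, adjusted p = 0.12). Ina, the neurofilament subunit alpha-internexin, fell from 53.1 ± 6.29 to 20.9 ± 3.65 CPM (-1.34, adjusted p = 0.00015), and Prph, peripherin, stood at 52.6 ± 8.23 and 37.6 ± 13.2 CPM (adjusted p = 0.16). These genes were singled out after their values were seen, and the differences between their changes were not tested.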
